A study of Caenorhabditis elegans with 2 samples.

Results

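The secretory pathway and small GTPase genes of Caenorhabditis elegans were examined for binding of an eGFP-tagged W03F9.2 protein, which is annotated in RefSeq as a C2H2-type domain-containing protein. The members were the protein-coding genes whose names begin with rab-, arf-, arl-, sec-, copa-, copb-, copd-, cope-, copg- or copz-, together with sar-1. This rule took 56 of 19985 protein-coding genes and uses no measured value, but the set was proposed with earlier results of these data known, so its share of bound genes is a description. By name they form 3 families, with 7 genes of the COPI coat, 19 Sec genes and 30 small GTPase genes, of which 20 are Rab genes, 6 Arl genes, 3 Arf genes and 1 is sar-1.

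The binding data came from ChIP-seq, in which chromatin bound by a protein is immunoprecipitated and its DNA sequenced. Per the labels, 2 biological replicates of whole worms, with males and females pooled at the L4/young adult stage and of an age given as unknown, form the only group. The strain, OP215, carries the unc-119(ed3) III allele and the integrated transgene wgIs215 with the tagged gene. Whole animals mix all tissues, so a peak does not tell in which cells it arose. The antibody field of the labels names W03F9.2 while the description names the eGFP fusion, so the precipitated epitope is not settled by them. No untagged group is among the samples, and the comparisons are therefore between genes and between replicates.

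Proteins bound for the cell surface, the lysosome or the outside enter the endoplasmic reticulum (ER) through the Sec61 translocon. Vesicles with a COPII coat carry them to the Golgi, COPI vesicles return material to the ER, and the exocyst tethers secretory vesicles at the plasma membrane. The small GTPases of the Sar, Arf and Arl families recruit coats and effectors, and each Rab GTPase marks particular membranes. Many C. elegans transcripts are trans-spliced, which removes the original 5′ end, and many genes lie in operons, so an annotated gene start need not be where transcription begins.

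Promoters ran from 1000 bp before the annotated gene start to 200 bp after it. A summit, the reported top of a peak, was credited to each protein-coding gene in whose promoter it fell. Of the 56 members, 22 (39.3%) had a promoter summit in the optimal set, the 2409 peaks kept by the authors' reproducibility threshold, against 11.7% of all protein-coding genes. A summit was found at 4 of 7 COPI coat genes (57.1%), at 10 of 19 Sec genes (52.6%) and at 8 of 30 small GTPase genes (26.7%). Within the Sec family all 3 translocon genes and 4 of 6 exocyst genes had one, against 2 of 6 COPII coat genes and neither of the SNARE genes sec-20 and sec-22. Among the GTPases a summit lay at 6 of 20 Rab genes (30.0%), 1 of 3 Arf genes, sar-1 and none of the 6 Arl genes. These shares are counts over complete lists of few genes, and differences between families were not tested.

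**Figure D1:**
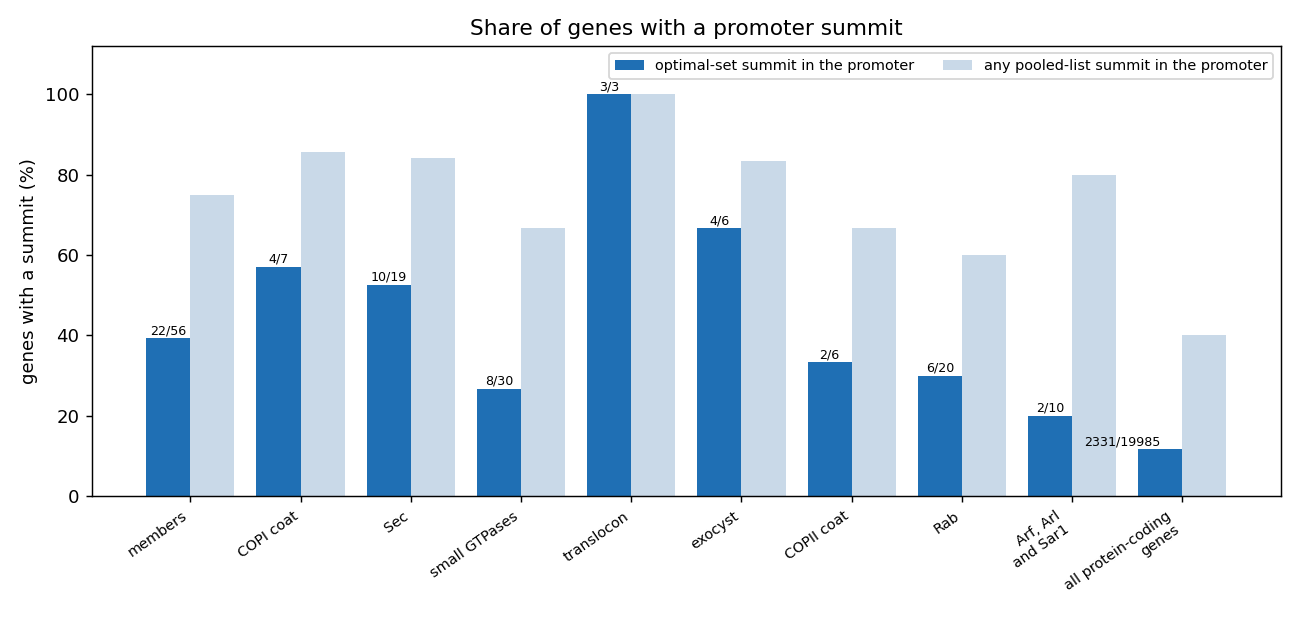
Share of genes (%, vertical axis) with a promoter summit in the optimal set (dark bars, with the number of genes above) and in the whole pooled list (light bars), for the members, their families, some of their roles, and all protein-coding genes at the right. The Arf, Arl and Sar1 genes are drawn together. The SNARE and signal peptidase genes, none with an optimal-set summit, and sec-12 have no bar of their own. Every family lies above the 11.7% of all protein-coding genes, with the 3 translocon genes at 100% and the small GTPases at 26.7%.

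The windows around 10 member summits are shown so that the letters that recur at this protein's peaks can be read in them. They are the 10 of highest signal among the member summits on chromosomes II to V and X whose window overlaps no annotated exon of a protein-coding gene, so the strongest, that of rab-18, is not among them. Each window holds the summit and 50 bases on both sides of it, and is written 5′ to 3′ on the strand of the named gene, from the RefSeq copy of WBcel235. Capitals mark any of the 10 6-mers, on either strand, that rose most in frequency from flanks to summits over the 2366 nuclear optimal-set peaks outside member promoters. In order of that excess they are GAGAGA (present within 50 bp of 21.8% of those summits), AGAGAC (17.2%), ACGCAG (15.4%), GACGCA (15.4%), ACGCGC (13.9%), CGTCTC (15.2%), GAGCGC (13.3%), AGACGC (13.5%), CGCAGA (13.9%) and GGCGCA (12.5%). Several of them overlap one another. The windows lie at chrV:10897306-10897406 (minus strand) for sec-61.G, chrIV:2389121-2389221 (minus strand) for sec-61.B, chrX:3099981-3100081 (minus strand) for sec-3, chrII:11967692-11967792 (minus strand) for rab-7, chrV:1264497-1264597 (minus strand) for rab-1, chrIV:11566304-11566404 (minus strand) for sec-24.1, chrII:10872703-10872803 (plus strand) for copz-1, chrII:9323074-9323174 (minus strand) for rab-39, chrIV:4513633-4513733 (minus strand) for sar-1 and chrIII:6625433-6625533 (minus strand) for copd-1.
sec-61.G: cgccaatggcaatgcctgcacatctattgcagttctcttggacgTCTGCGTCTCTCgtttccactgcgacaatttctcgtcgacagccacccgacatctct
sec-61.B: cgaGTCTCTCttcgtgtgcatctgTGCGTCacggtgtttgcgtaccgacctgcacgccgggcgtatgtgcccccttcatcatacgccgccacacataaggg
sec-3: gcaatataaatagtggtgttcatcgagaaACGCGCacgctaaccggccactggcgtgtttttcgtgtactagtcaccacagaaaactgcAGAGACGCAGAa
rab-7: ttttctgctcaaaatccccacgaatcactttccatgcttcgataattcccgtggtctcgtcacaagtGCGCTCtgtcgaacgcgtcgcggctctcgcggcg
rab-1: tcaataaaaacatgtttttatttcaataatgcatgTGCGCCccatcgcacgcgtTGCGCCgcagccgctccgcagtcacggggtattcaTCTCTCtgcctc
sec-24.1: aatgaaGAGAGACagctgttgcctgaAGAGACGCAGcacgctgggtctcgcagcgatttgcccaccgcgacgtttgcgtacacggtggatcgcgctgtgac
copz-1: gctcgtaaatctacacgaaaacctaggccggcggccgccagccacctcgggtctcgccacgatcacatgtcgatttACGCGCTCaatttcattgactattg
rab-39: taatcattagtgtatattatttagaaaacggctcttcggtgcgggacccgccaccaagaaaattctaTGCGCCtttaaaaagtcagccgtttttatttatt
sar-1: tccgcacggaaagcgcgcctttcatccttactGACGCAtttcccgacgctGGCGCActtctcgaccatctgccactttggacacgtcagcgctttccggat
copd-1: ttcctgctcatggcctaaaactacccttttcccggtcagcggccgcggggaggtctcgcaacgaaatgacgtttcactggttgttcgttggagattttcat

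At least 1 of the 10 6-mers stood within 50 bp of 13 of the 23 member summits (56.5%), and in the flanks, from 200 to 250 bp on both sides, of 6 of them (26.1%). The corresponding shares at the other nuclear summits were 63.9% at the summit and 20.1% in the flanks. The 6-mers were picked for this very difference at those peaks, so it is raised by the choice. Windows of the same length placed 238 bp upstream of 19973 nuclear protein-coding starts, the median position of all summits in promoters, held at least 1 in 19.6% of cases. Of the 17 member summits among the 1204 optimal-set peaks of highest signal, 12 (70.6%) held at least 1, as did 1 of the other 6. Among the other nuclear summits the counts were 818 of 1168 in the stronger part and 695 of 1198 in the weaker part. The windows of sec-61.G, sec-3 and sec-24.1 held 7, 7 and 6 of the 10, where overlapping 6-mers run together as AGAGACGCAG in the sec-3 and sec-24.1 windows and as CTGCGTCTCTC in that of sec-61.G. GAGAGA, the 6-mer with the highest excess over flanks elsewhere, was in 4 member summit windows and in the flanks of 4. GACGCA was in 5 member summit windows, those of sec-61.G, sec-61.B, sec-3, sec-24.1 and sar-1, and in no member flank. The median GC content of the summit windows was 50.5% at members and 44.6% at the other summits, which include summits outside promoters. A match is only a run of letters and was not tested as a binding site.

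The translocon genes sec-61.G and sec-61.B had the highest signals of the Sec family, and sec-61.A had a weaker one. The signal is the authors' own value for a peak, in the units of their peak caller, and each list has its own scale. The gene sec-61.G (WBGene00001303) encodes the gamma subunit, and its peak at chrV:10897257-10897451 had a signal of 234 in the pooled list, 106 in replicate 1 and 131 in replicate 2. Its summit lay 213 bp upstream of the start and ranked 58 of the 2409 optimal-set peaks. The beta subunit gene sec-61.B (WBGene00021427) had signals of 163 in the pooled list, 61.7 in replicate 1 and 105 in replicate 2 at chrIV:2389100-2389243, and ranked 159. That summit is nearer to trap-3, which encodes a translocon-associated protein on the opposite strand. It lies 274 bp upstream of trap-3 and 496 bp upstream of sec-61.B. The alpha subunit gene sec-61.A had signals of 65.4 in the pooled list, 22.2 in replicate 1 and 46.3 in replicate 2 at chrIV:14825000-14825349. Its summit fell 89 bp downstream of the start in the 5′ UTR, the only member summit downstream of its start, and also in the promoter of the ribosomal protein gene rps-18.

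Exocyst genes had summits at 4 of the 6 members. The sec-3 (WBGene00018703) peak at chrX:3099941-3100080 was the strongest, with signals of 161 in the pooled list, 87.2 in replicate 1 and 72.8 in replicate 2, and ranked 166. Its summit, 179 bp upstream, lay in no other promoter. sec-8 had 70.4 in the pooled list, 30.0 in replicate 1 and 49.5 in replicate 2, and sec-15 had 70.2, 29.9 and 43.1 in the same lists. sec-15 was the only member with more than 1 optimal-set summit, at 263 and 467 bp upstream, and both summits also lay in the promoter of C28G1.2. Both of these peaks matched the same entry of each replicate list. The sec-5 peak was the weakest exocyst peak at 52.1 in the pooled list. It ranked 10726 in replicate 1, with a signal of 10.4, and 1549 in replicate 2, with 40.1, and its summit lay 48 bp upstream of pir-1, which encodes an RNA phosphatase, and 100 bp upstream of sec-5. sec-10 had a pooled-list entry of 31.6 that was not in the optimal set. sec-6 had no entry in its promoter in any of the lists. Of the remaining Sec genes, the SNARE genes sec-20 and sec-22 had pooled entries of 18.2 and 13.6, and the signal peptidase gene sec-11 had 13.1.

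The COPII machinery was covered unevenly. The GTPase gene sar-1, whose product starts COPII coat assembly, had signals of 86.5 in the pooled list, 38.1 in replicate 1 and 44.6 in replicate 2, with a summit 364 bp upstream that lay in no other promoter. sec-12, which encodes the exchange factor that activates Sar1 in yeast, had 67.3 in the pooled list, 14.3 in replicate 1 and 47.7 in replicate 2. Of the inner coat genes, sec-24.1 (WBGene00004755) had 114 in the pooled list, 34.5 in replicate 1 and 78.2 in replicate 2 at chrIV:11566179-11566528, ranked 416, with a summit 160 bp upstream that lay in no other promoter. sec-23 had 53.9 in the pooled list, 24.4 in replicate 1 and 25.4 in replicate 2, and its summit is nearer to dcs-1, which encodes a decapping scavenger enzyme. The outer coat gene sec-31 had a strongest pooled entry of 44.5, just under the lowest optimal-set signal of 48.5, and was called when replicate 1 was left out. Neither gene for the scaffold Sec16 had a summit, with 26.5 in the pooled list at sec-16A.2 and no pooled entry at sec-16A.1.

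Of the 7 genes for COPI coatomer subunits, copz-1 (zeta), copa-1 (alpha), copd-1 (delta) and copg-1 (gamma) had summits. copz-1 (WBGene00010333) was the strongest, with signals of 108.1 in the pooled list, 47.9 in replicate 1 and 63 in replicate 2 at chrII:10872578-10872927, and ranked 479. Its summit lay 126 bp upstream of copz-1 and 142 bp upstream of the cyclophilin gene cyn-4. The pooled signals of copa-1, copd-1 and copg-1 were 81.6, 81.6 and 81.5. Their replicate values were less alike. copa-1 had 54.7 in replicate 1 and 35.6 in replicate 2, copd-1 had 25.0 and 58.4, and copg-1 had 31.8 and 50.2. The epsilon subunit gene cope-1 had 41.3 in the pooled list, below the optimal set, and copb-1 (beta) had 11.1. copb-2 (beta prime) had an entry of 27.8 in replicate 1, which ranked within the 2409 strongest of that list, but no entry in replicate 2 or in the pooled list. With replicate 1 alone, cope-1 and copb-2 were called as well, which makes 6 of the 7 COPI genes. All 4 called COPI peaks were among the 2409 strongest entries of both replicates.

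The Rab genes with a summit were rab-18, rab-7, rab-1, rab-39, rab-5 and rab-11.1. rab-18 (WBGene00004277), whose product is linked to the ER and lipid droplets, had the highest signal of all members. Its peak at chrIII:1080647-1080869 had 318 in the pooled list, 140 in replicate 1 and 186 in replicate 2, and ranked 37 in the optimal set. The summit lay at the annotated start of rab-18, in its 5′ UTR, 126 bp upstream of kbp-4 and 626 bp upstream of the polarity gene par-2 on the other strand. rab-7 (WBGene00004271), for late endosomes and lysosomes, had 152 in the pooled list, 56.3 in replicate 1 and 99.6 in replicate 2 at chrII:11967673-11967778, and ranked 196. rab-1 (WBGene00004266), for traffic between ER and Golgi, had 132 in the pooled list, 45.6 in replicate 1 and 89.0 in replicate 2 at chrV:1264482-1264580, and ranked 286. Both summits lay far from the start, 811 bp upstream of rab-7 and 558 bp upstream of rab-1, and were nearer to other genes, W03C9.5 at 198 bp and C39F7.5 at 226 bp.

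rab-39 had 89.5 in the pooled list, 23.2 in replicate 1 and 71.6 in replicate 2. rab-5, for early endosomes, had 85.8 in the pooled list, 41.2 in replicate 1 and 50.6 in replicate 2, with a summit 670 bp upstream. rab-11.1, for recycling endosomes, had 69.5 in the pooled list, 35.9 in replicate 1 and 31.2 in replicate 2, with a summit 695 bp upstream, 286 bp from the start of the ribosomal protein gene rpl-7. In all, 5 of the 23 member summits lay more than 500 bp upstream, those of 4 Rab genes and copd-1. With each optimal-set summit counted once for every promoter that held it, 18.7% lay that far upstream across all protein-coding genes. All 6 Rab summits lay in the promoter of at least 1 other gene.

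The remaining 14 Rab genes had no optimal-set summit. Of these, rab-10 (37.3), rab-6.2 (36.4), rab-8 (27.9), rab-14 (25.1), rab-33 (20.3) and rab-6.1 (14.9) had weaker entries in the pooled list. The Rab10 protein works in endocytic recycling, Rab8 in traffic to the plasma membrane and Rab6 at the Golgi. rab-3, which acts on synaptic vesicles, and rab-21, rab-28, rab-30, rab-35, rab-37 and rab-11.2 had no entry in their promoters in any list. rab-19 had only an entry of 10.2 in replicate 2. These promoters were drawn at the annotated gene start. When any annotated protein-coding transcript start was used, rab-30 had an optimal-set summit, as did arf-1. The paralog pairs rab-11.1 and rab-11.2, and sec-24.1 and sec-24.2, thus had a summit at the first gene and no pooled-list entry at the second. sec-24.2 had entries of 10.1 in replicate 1 and 12.5 in replicate 2.

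Of the Arf and Arl genes only arf-6, which works at the plasma membrane and endosomes, had a summit. Its signals were 77.6 in the pooled list, 32.6 in replicate 1 and 47.2 in replicate 2, and the summit lay 160 bp upstream of both arf-6 and Y116A8C.9, which are divergent. arf-5 and arf-1 had 26.5 and 20.7 in the pooled list. Among the Arl genes, arl-8, for lysosome and synaptic vesicle transport, came closest with 45.1, while arl-3, arl-1 and arl-13 had from 11.4 to 15.4. arl-5 and arl-6 had no pooled entry.

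**Figure D2:**
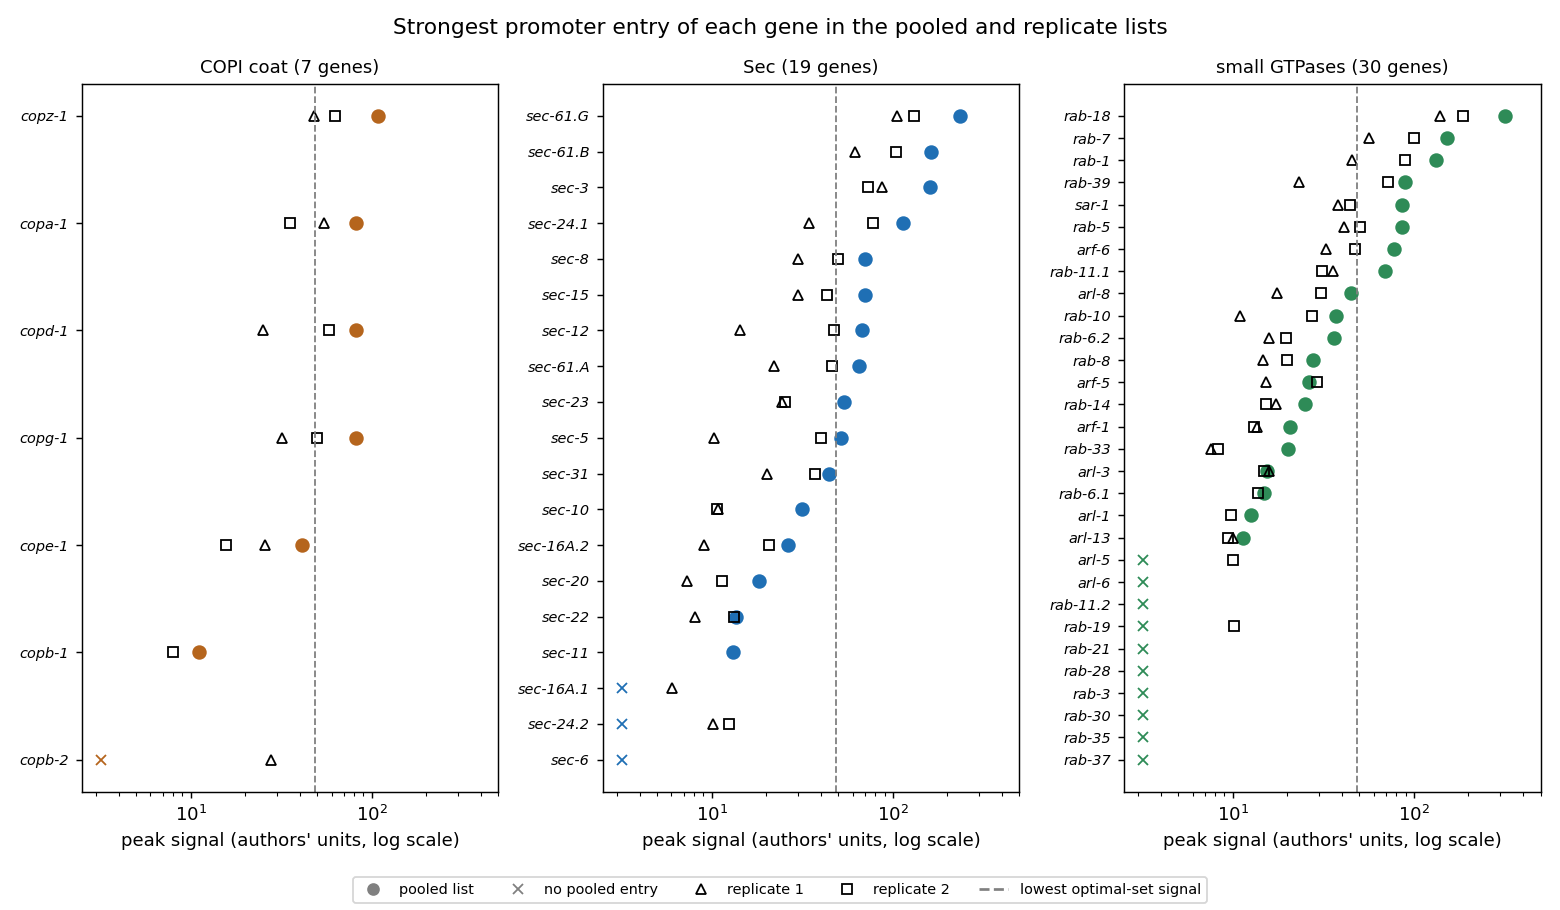
Signal of the strongest entry (horizontal axis, authors' units on a log scale) in the promoter of each of the 56 members, by family, in the pooled list (filled circles; crosses at the left edge mark genes with no pooled entry, not a value), replicate 1 (triangles) and replicate 2 (squares). The dashed line is the lowest pooled-list signal of the optimal set, 48.5, and applies to the circles: 22 genes lie right of it, led by rab-18 at 318.

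Below the optimal set, a further 20 members had only a weaker entry in the pooled list of 30000 entries, so 42 of 56 (75.0%) had some pooled-list summit, against 40.1% of all protein-coding genes. The signals of these 20 ranged from 11.1 to 45.1 with a median of 22.9, and the median over all protein-coding genes with only such entries was 19.4. The closest to the optimal set from below were arl-8, sec-31 and cope-1, and the closest from above were sec-5 and sec-23. Of the 14 members without a pooled entry, 5 had an entry in a replicate list and 9 had none in any list. Where a summit was present, its signal was close to that elsewhere. The strongest summit of a member had a median signal of 83.7, against 80.2 over all protein-coding genes with a summit.

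Replicate 2 gave the higher signal at 20 of the 23 member peaks, and at 86.4% of all optimal-set peaks matched in both lists. The log2 ratio of replicate 2 to replicate 1 had a median of 0.53 and an SD of 0.63 over member peaks, against 0.66 and 0.66 over the 2378 optimal-set peaks matched in both lists. The exceptions were copa-1, sec-3 and rab-11.1, and the widest gaps the other way were at sec-5, sec-12 and rab-39. Log2 signal in the replicates had a Pearson r of 0.68 over the 23 member peaks, which is a description across peaks of the same libraries. Of the member peaks, 19 (82.6%) were overlapped by the 2409 strongest entries of both replicates, against 62.8% of the whole optimal set. That set also holds peaks outside promoters, and both sec-15 peaks are among the 19 through the same entries. The 4 member peaks not overlapped in this way lay at rab-11.1, sec-12, sec-23 and sec-5. Thus 18 members (32.1%) had a summit on this stricter count, against 8.22% of all protein-coding genes. Among genes with an optimal-set promoter summit, the stricter count kept 18 of 22 members and 1642 of 2331 protein-coding genes.

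**Figure D3:**
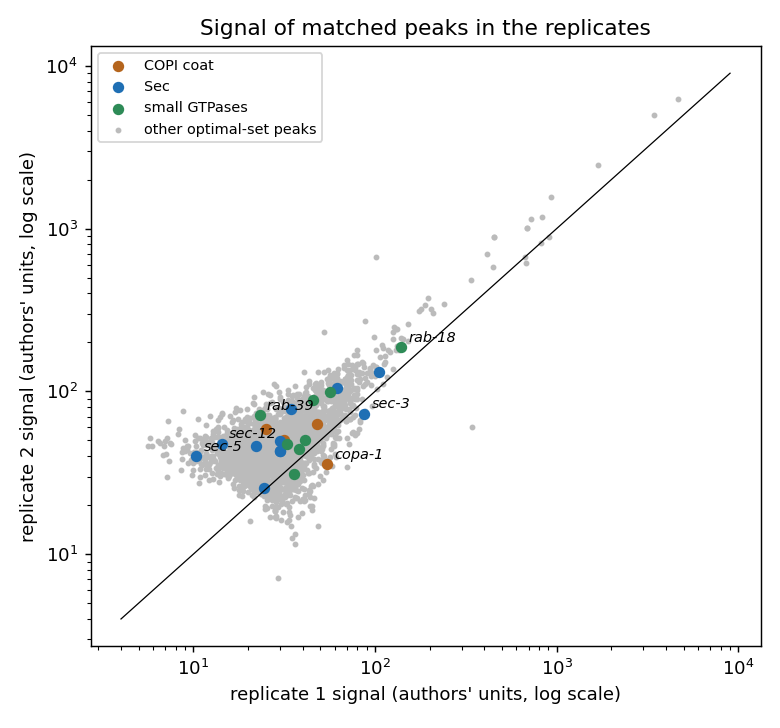
Signal of each optimal-set peak matched in both replicate lists, in replicate 1 (horizontal) and replicate 2 (vertical), in the authors' units on log scales. Member peaks are coloured by family, other matched peaks are grey, and the line marks equal signal. Peaks without an entry in 1 of the lists are not drawn. Most member peaks lie above the line, those of copa-1, sec-3 and rab-11.1 lie below it, and sec-5 and sec-12 are far weaker in replicate 1.

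Most member summits were shared. A summit between divergent genes counts for each of them, so the fair comparison is over pairs of a gene and a summit. Of the 23 member pairs, 17 (73.9%) had a summit that also lay in the promoter of another protein-coding gene, against 57.8% of all 2393 pairs, and 16 (69.6%) had one shared with a gene on the opposite strand, against 54.5%. The 6 summits in a single protein-coding promoter were those of sec-3, sec-24.1, sar-1, copd-1, copg-1 and sec-12. Noncoding genes were left out of this count. The noncoding genes F12F6.13 and F12F6.14 start within 500 bp of the sec-24.1 summit. Partners included the ribosomal protein genes rpl-7 and rps-18, trap-3, cyn-4, the glutathione transferase gene gst-43 beside copa-1, and mex-1, which encodes a germline RNA-binding protein, beside rab-7. A member's own start was the nearest at 15 of the 23 summits, counting that of arf-6, which lies equally far from Y116A8C.9. When a summit was credited to the nearest start alone, this left 4 of 7 COPI genes, 6 of 19 Sec genes (31.6%) and 5 of 30 GTPase genes (16.7%, arf-6 included), against 8.16% of all protein-coding genes. Summits in a single promoter alone left 2 COPI genes, 3 Sec genes and 1 GTPase gene, sar-1. On that count the GTPase share of 3.33% was below the 4.97% of all protein-coding genes, while the COPI share (28.6%) and the Sec share (15.8%) stayed above it.

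**Figure D4:**
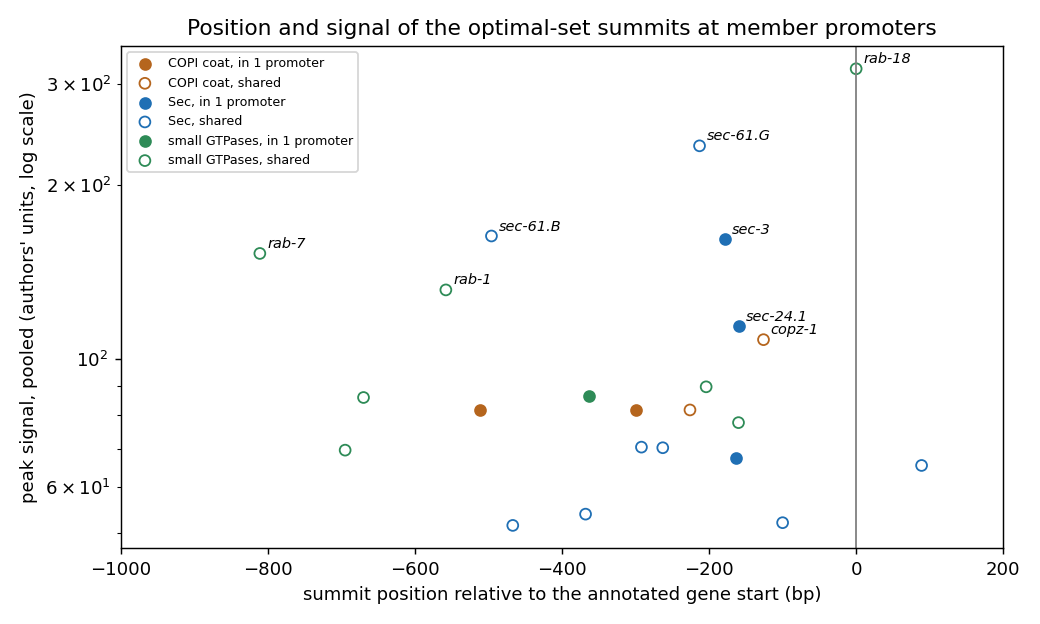
Position of each of the 23 member summits relative to the annotated gene start (horizontal, bp; negative is upstream) against pooled signal (vertical, authors' units on a log scale). Filled points lie in the promoter of 1 protein-coding gene and open points in several; rab-18 lies at the start itself, and sar-1 is the only filled GTPase point.

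Member summits lay at a median position of -263 bp, with quartiles at -481.5 and -161.5, against -238 bp with quartiles at -407 and -136 over all pairs. Of the 23 summits, 20 were intergenic and 3 lay in an annotated 5′ UTR, those of rab-18, sec-61.A and C28G1.2. The last is the summit 467 bp upstream of sec-15. These features were not counted over all summits, so the counts only describe the members. By chromosome, summits were found at 5 of 10 members on I, 4 of 10 on II, 2 of 12 on III, 6 of 14 on IV, 3 of 3 on V and 2 of 7 on X. All protein-coding genes with a summit made up 18.5% on I, 10.8% on II, 19.2% on III, 11.7% on IV, 7.35% on V and 5.86% on X.

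Genes that follow another gene closely on the same strand were examined apart, since in C. elegans such genes may be transcribed together. Runs were taken from the annotation alone as genes of 1 strand separated by less than 500 bp or overlapping. Of the 37 members that stood alone or first in a run, 19 (51.4%) had a summit, against 12.4% of all such genes. Of the 19 further down a run, 3 (15.8%) had one, against 8.74%. Among the 16 members further down a run without a summit, the first gene of the run had one in 9 cases (56.2%), against 24.4% over all protein-coding genes in that position. The first genes were bmy-1 before sec-6 (signal 85.6), taf-11.3 before rab-33 (179), cyn-11 before rab-21 (63.7), Y62E10A.20 before rab-19 (120), rpb-10 before arl-13 (69.6), panl-3 before arl-5 (79.3), tps-2 before arl-3 (56.3), rpl-5 before arl-1 (218) and sgo-1 before sec-10 (71.4). For sec-6, rab-33, rab-21, arl-13 and rab-19 that summit lay from 1146 to 1876 bp upstream of the member, so a longer promoter, starting 2000 bp before the gene, took in all 5. For arl-1 and sec-10 it lay 12453 and 14414 bp away, and arl-3 and rab-19 overlap the gene before them. Whether these genes share a transcript was not measured.

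Other genes of membrane traffic, taken as a list by name, had summits at 47 of 139 (33.8%), against 11.7% of all protein-coding genes. The group for the translocon, its associated proteins and signal peptidase was highest, at 10 of 15 (66.7%), with spcs-2 at 171, trap-3 at 163 (the peak shared with sec-61.B) and dad-1 at 149. Clathrin and adaptor genes had 6 of 14 (42.9%), led by apb-1 (167) and aps-3 (167). ER export genes had 4 of 10 (40.0%), SNARE genes 8 of 27 (29.6%), regulators and other small GTPases 12 of 46 (26.1%) and tethers 7 of 27 (25.9%). Examples are tmed-10 at 102, the SNARE gene syx-5 at 125, rheb-1 at 167, ran-1 at 124 and the tether gene cogc-2 at 143. The summit of every gene named here with a signal, except tmed-10, also lay in the promoter of another protein-coding gene. Of the small GTPase genes in this list, cdc-42, rho-1, ced-10, let-60 and unc-108, which encodes Rab2, had no optimal-set summit. They were picked after their values were seen.

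**Figure D5:**
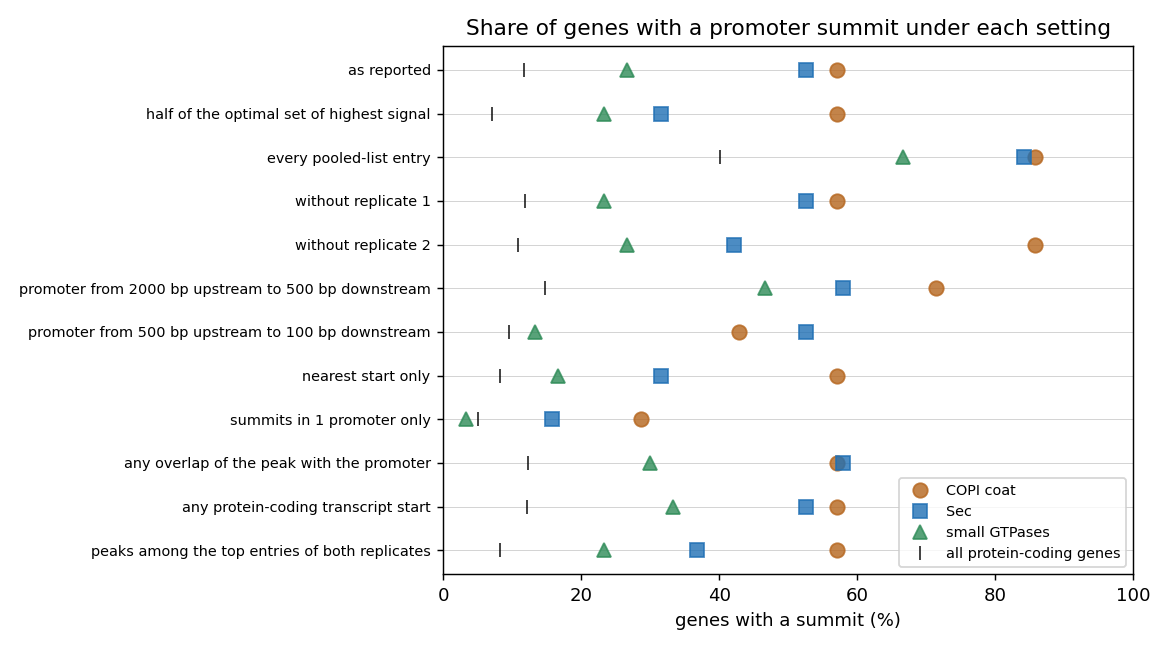
Share of genes with a promoter summit (%, horizontal axis) in each family and among all protein-coding genes (vertical ticks) under each setting (rows). The COPI and Sec families lie right of all protein-coding genes in every row, and the small GTPases do so in every row but that of summits in 1 promoter only.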

How the data were processed

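Peak lists on ce11 were used for each of the 2 replicates, for both together (the pooled list) and for the authors' optimal set, which passed an IDR threshold on reproducible ranks. Per the files' accompanying notes, the deposited lists came from the alignments and a control alignment, while no aligner, caller or setting is given in the sources used here. The deposited signal is a value of the authors' peak caller, in its own units, and served to rank and describe peaks within a list. Per the file columns, the deposited −log10 q-value is the same for all optimal-set peaks, and it was not used further. The deposited offset gave the summit, which lay within 1 bp of the peak's middle in 88.1% of optimal-set peaks, so positions are approximate. The 2409 optimal-set peaks were the 2409 of highest signal among the 30000 pooled entries. Read depths are unknown, and the control's own signal was not analysed here.

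Peaks fitted within the WBcel235 chromosomes, and gene models came from Ensembl release 115. Coordinates are 1-based. Replicate entries were matched to optimal-set peaks by an overlap of at least 1 bp, taking the entry of highest signal. The assignment of summits to genes was tested on simulated data. The 6-mers were counted with both strands read as one. Python 3.11.15, pandas 2.3.3, NumPy 2.4.6 and Matplotlib 3.10.9 were used. No statistical test was run. The replicates form 1 group, and nothing in the design allows a test between groups of samples. By rule, every member is accounted for, the 8 of highest signal in full, with paralogs side by side and with the genes that share a summit or, in the pathway list, have one. The first genes of runs and the pathway genes without a summit were named after their values were seen. The members, families and lists were chosen with earlier results of these data known. Alternatives changed the peak list, the promoter span, the assignment of shared summits, the use of whole peaks, the starts and the family borders.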

Additional observations from a re-analysis of the deposited data

How the results depend on the processing

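Of 67 recomputed values, 48 stayed within 1.5 times the reported count or within the spread between replicates. Without 1 replicate, members with a summit numbered from 21 to 22, COPI genes from 4 to 6, Sec genes from 8 to 10, GTPase genes from 7 to 8 and all protein-coding genes from 2177 to 2358. The members called were those with an entry among the 2409 strongest of the remaining replicate. That is the size of the optimal set, so similar totals are partly fixed in advance. Of the 22 members, 20 were kept without replicate 1 and 20 without replicate 2. Of the 2331 protein-coding genes with a summit, 2090 were kept without replicate 1 and 1834 without replicate 2. With every pooled entry the counts were 42 members, 16 Sec genes, 20 GTPase genes and 8011 of all genes. With the 1204 optimal-set peaks of highest signal they were 6 Sec genes and 1420 of all genes. With the nearest start only they were 6 Sec and 5 GTPase genes. With summits in 1 promoter only they were 6 members, 2 COPI, 3 Sec and 1 GTPase genes and 993 of all genes. With promoters from 2000 bp upstream to 500 bp downstream 14 GTPase genes (46.7%) had a summit, against 14.7% of all genes, and from 500 bp upstream to 100 bp downstream 4 (13.3%), against 9.52%. With promoters at any protein-coding transcript start 24 members and 10 GTPase genes (33.3%) had one, against 12.2% of all genes. The median position of member summits was -368 bp with the wide span, -208.5 bp with the narrow one, -204 bp with the nearest start only and -239 bp with summits in 1 promoter only. Apart from those without 1 replicate, these settings count more or fewer peaks or bases, or credit a summit to fewer genes, by their construction. Moving the COPII genes to the coats gave 6 of 13 coat genes (46.2%) and 8 of 13 other Sec genes (61.5%). The stricter count over both replicates and the flanks of equal length, under which GAGAGA also ranked 1, were chosen after seeing the data. Depth is unknown, so absence from a list is no measure of absent binding.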

Other observations

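copb-2 had an entry with a signal of 27.8 and rank 1461 in replicate 1 and none within its promoter in replicate 2 or the pooled list.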
